A study of Mus musculus with 4 samples.

Results

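Complex I of the mitochondrial respiratory chain was followed through every gene whose name starts with mt-Nd or Nduf: 55 of the 22266 genes listed. They are 7 mt-Nd genes carried by the mitochondrial genome, 40 nuclear Nduf genes that code mainly for subunits, and 8 Ndufaf genes that code for assembly factors. All 55 passed the filter on low values described below. The RNA came from a female mouse embryonic stem cell line, PGK12.1, grown in serum with LIF. In the OHT group (n = 2) the cells had received 1.0 µM 4-hydroxytamoxifen (4-OHT) for 48 h and were collected on day 2, with the genotype given as Knockout. In the EtOH group (n = 2) the cells were day 0 controls given ethanol, with the genotype given as Wildtype. Both groups carry CBX2fl/fl-HaloTag, that is, floxed Cbx2 alleles with a HaloTag, so no library comes from cells with unmodified Cbx2. Cbx2 codes for a chromobox protein of Polycomb repressive complex 1. No library combined 4-OHT with intact Cbx2 or ethanol with day 2, so drug, time and deletion cannot be told apart. The labels name neither the recombinase nor the deleted exons, and are silent on whether each replicate was its own culture. The p-values therefore reflect the spread among these 4 libraries alone, which may be technical.

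Complex I, NADH:ubiquinone oxidoreductase, is the entry point of electrons from NADH into the respiratory chain. It is L-shaped: a peripheral arm in the matrix oxidises NADH and passes electrons along iron-sulphur clusters to ubiquinone, and a membrane arm pumps protons. The mitochondrial genome codes for the core of the membrane arm, whereas the core of the peripheral arm, the accessory subunits and the assembly factors come from nuclear genes. A complete enzyme therefore draws on transcripts of both genomes. Mouse embryonic stem cells of this kind respire but also run a high glycolytic flux.

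TPM is a unit in which the reads of a gene are divided by its length and each library is scaled to a total of 1000000. Levels can therefore be set side by side between genes, but the depth is unknown and the precision of single values is not known beyond the spread between replicates. Testing was limited to the 12029 genes whose mean TPM reached 1, with limma on log2(TPM + 1). A fold change below is the OHT mean minus the EtOH mean on that log2 scale, and adjusted p means limma's p with Benjamini-Hochberg adjustment over all 12029 genes, with a threshold of 0.05. Among all genes 5 passed, which is 0.0416% of those tested, and none of the 55 complex I genes was among them. An unadjusted p under 0.05 (limma) was reached by 5 of the 55, beside 10.5% of all genes tested. Cbx2, checked first, had 0.749 and 1.14 TPM in OHT cells, against 2.29 and 2.71 TPM in EtOH cells (adjusted p = 0.265, limma). All 7 embryonic stem cell markers were abundant, with means of 218 to 5514 TPM and sums of 12085 and 10791 TPM in OHT against 9168 and 9107 TPM in EtOH. Fibroblast and feeder markers summed to 8.46 and 12.2 TPM in OHT against 6.99 and 6.02 TPM in EtOH, with Thy1 as the only gene of 7 above a mean of 1 TPM and Postn at 0 in every library; the part of other cells in the results was not tested.

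The 7 mt-Nd genes are shown first by their sequences, because their layout bears on how their RNA can be read. The stretches below are the last 30 bases of each transcript in GENCODE release 21 for mouse (GRCm38), 5′ to 3′, with the bases that form or begin the stop codon in capitals.
mt-Nd1: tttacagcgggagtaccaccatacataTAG
mt-Nd2: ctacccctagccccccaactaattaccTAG
mt-Nd3: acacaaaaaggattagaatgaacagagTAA
mt-Nd4l: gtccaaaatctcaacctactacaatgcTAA
mt-Nd4: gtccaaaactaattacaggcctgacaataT
mt-Nd5: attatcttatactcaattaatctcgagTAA
mt-Nd6: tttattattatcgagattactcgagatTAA
The annotated transcripts hold no untranslated bases after the stop codon. The mt-Nd4 transcript has 1378 bases, or 459 full codons plus 1 base, and ends on the single T of an incomplete stop codon, which in mammalian mitochondria the poly(A) tail completes. The libraries were made from poly(A)-selected RNA, so the tail also bears on whether an mRNA enters the measurement. How each mt-Nd mRNA was captured was not tested.

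The genes mt-Nd4l (chrM:9877-10173, plus strand, in GRCm38) and mt-Nd4 (chrM:10167-11544, plus strand) overlap by 7 bases and are known to be carried on a shared mRNA. Their junction is shown with the 7 shared bases in capitals, which hold the start of mt-Nd4 and the stop of mt-Nd4l.
mt-Nd4l and mt-Nd4 junction: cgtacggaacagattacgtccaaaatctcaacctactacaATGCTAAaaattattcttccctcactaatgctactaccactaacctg
A second overlap joins mt-Nd5 (chrM:11742-13565, plus strand) and mt-Nd6 (chrM:13552-14070, minus strand), which share 14 bases on opposite strands. Whether the counting kept strand is not given in the sources used here, so reads from those bases cannot be assigned to either gene. If strand was not kept, plus-strand RNA from anywhere along mt-Nd6 could also be counted as mt-Nd6. Its levels, its fold change and its ratio to mt-Nd5 below are uncertain to that extent. mt-Nd6 is the sole member on the minus strand, and its transcript has 28.1% G against 8.0% to 11.6% G in the other 6. In humans the ND6 mRNA is known to lack a poly(A) tail; whether this holds in these cells was not tested.

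In OHT cells 6 of the 7 mt-Nd mRNAs were lower than in EtOH cells in both replicates, with no overlap of the libraries, and the exception was mt-Nd3. The share of all tested genes whose libraries did not overlap in that direction was 19.4%. None of the 7 passed the adjusted threshold, and 4 of them had an unadjusted p under 0.05 (limma) in the lower direction, against 4.46% of all genes tested. The median fold change of the 7 genes was -0.54 on the log2 scale, beside 0.02 over all genes tested. The median was -0.81 for OHT replicate 1 and -0.34 for OHT replicate 2, each set against the EtOH mean.

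The difference was the most pronounced of the 7 for mt-Nd6, which codes for a membrane-arm subunit near the junction of the arms. It had 43.7 and 54.9 TPM in OHT, against 89.7 and 110.0 TPM in EtOH. Both OHT libraries lay well below both EtOH libraries (log2 fold change -1.01, SE 0.16, adjusted p = 0.158, limma). Its mean over the 4 libraries, 74.6 TPM, was also the lowest of the 7, and the next lowest was mt-Nd5. Relative to mt-Nd5, its partner on the other strand, the ratio of levels was 0.128 and 0.0977 in OHT, against 0.158 and 0.175 in EtOH, so mt-Nd6 was lower than mt-Nd5 in every library and the ratio itself did not overlap between groups.

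mt-Nd4 and mt-Nd4l code for a proton-pumping subunit and a small neighbour of it in the membrane. mt-Nd4 had 819 and 1259.7 TPM in OHT, against 1572 and 1625 TPM in EtOH (log2 fold change -0.65, SE 0.20, adjusted p = 0.355, limma). mt-Nd4l had 747 and 1308 TPM in OHT, against 1391 and 1496 TPM in EtOH (log2 fold change -0.55, SE 0.25, adjusted p = 0.518, limma). Both were lower in OHT, by more in replicate 1 than in replicate 2. Their ratio, mt-Nd4l over mt-Nd4, was 0.912 and 1.04 in OHT, against 0.885 and 0.920 in EtOH, so the pair that shares an mRNA stood at close to equal levels per length in all 4 libraries and the ratio overlapped between the groups.

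mt-Nd2 and mt-Nd5 code for the other subunits of the pumping kind. mt-Nd2 (chrM:3914-4951, plus strand) had 821 and 1077 TPM in OHT, against 1346 and 1382 TPM in EtOH (log2 fold change -0.54, SE 0.14, adjusted p = 0.296, limma). mt-Nd5 had 340.1 and 562 TPM in OHT, against 566 and 627 TPM in EtOH (log2 fold change -0.45, SE 0.23, adjusted p = 0.561, limma). The gap for mt-Nd5 rested on OHT replicate 1, since replicate 2 came within 5 TPM of the lower EtOH library.

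mt-Nd1 (chrM:2751-3707, plus strand) codes for the subunit that forms much of the ubiquinone-binding chamber. It had 2464 and 2930.2 TPM in OHT, against 3685 and 3833 TPM in EtOH, or 2697 ± 329 TPM in OHT and 3759 ± 105 TPM in EtOH (SD, n = 2 each). It was the most abundant mt-Nd mRNA in EtOH, and its OHT libraries lay below both EtOH libraries (log2 fold change -0.48, SE 0.11, adjusted p = 0.265, limma).

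mt-Nd3 (chrM:9459-9806, plus strand) codes for a small subunit with a flexible loop near the ubiquinone site. It had 2919 and 2472 TPM in OHT, against 2494 and 2299.7 TPM in EtOH. One OHT library lay above and the other within the range of EtOH (log2 fold change 0.17, SE 0.11, adjusted p = 0.667, limma). The order of the 2 most abundant mt-Nd mRNAs thus varied by library: the ratio of mt-Nd3 to mt-Nd1 was 1.18 and 0.844 in OHT, against 0.677 and 0.600 in EtOH.

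**Figure D1:**
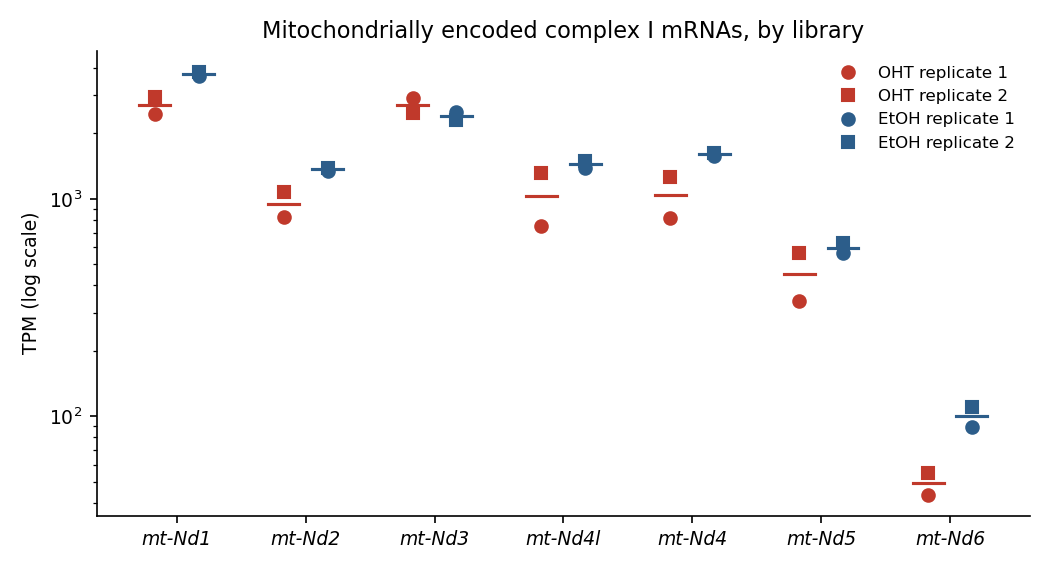
TPM of the 7 mt-Nd genes in each library on a log axis, with OHT points left of EtOH points for each gene. Both OHT points lie below both EtOH points for every gene but mt-Nd3, and OHT replicate 1 is the lower OHT point for all 6 of those.

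The leave-one-out fits show how far the mt-Nd differences rest on single libraries. In a fit without OHT replicate 1 the adjusted p was 0.0066 for mt-Nd1, 0.008 for mt-Nd2, 0.008 for mt-Nd4 and 0.0119 for mt-Nd6, all lower in OHT (limma). In a fit without OHT replicate 2 all 6 lower genes passed, and mt-Nd3 passed in the higher direction at an adjusted p of 0.0165 (limma). In such fits the spread comes from the EtOH pair alone and is taken to hold for the remaining OHT library, although the EtOH libraries lay closer to each other than the OHT libraries did: 2957 genes passed without OHT replicate 1 and 2478 without OHT replicate 2, out of 12029. Without EtOH replicate 1, mt-Nd6 was the single complex I gene that passed (log2 fold change -1.15, adjusted p = 0.0345, limma), and without EtOH replicate 2 no complex I gene did.

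The other 6 mitochondrial mRNAs, which code for subunits of complexes III, IV and V, were measured beside the mt-Nd genes. All 6 were lower in both OHT libraries than in both EtOH libraries, beside 19.4% of all genes tested, with a median log2 fold change of -0.56. An unadjusted p under 0.05 (limma) in the lower direction was reached by 5 of the 6, beside 4.46% of all genes tested. After the removal of the length and GC trend described below, the median of the 6 was -0.22. On that scale mt-Atp8 stood at 0.08 and mt-Co3 at 0.07, and the rest of the 6 stayed below 0. The 13 mitochondrial mRNAs together made up 2.93% and 3.38% of all TPM in OHT, against 4.26% and 4.35% in EtOH. Within that sum the mt-Nd genes held 27.8% and 28.6% in OHT, against 26.2% and 26.2% in EtOH. These shares include mt-Nd3, the only 1 of the 13 with a log2 fold change above 0. The share without mt-Nd3 was not computed, so the higher share in OHT need not hold for the rest of the mt-Nd genes. TPM is a share of each library's total, so a lower share need not mean less mitochondrial mRNA per cell. In bulk RNA, less mitochondrial mRNA per cell and fewer cells rich in it also cannot be told apart.

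For the 40 nuclear Nduf genes the median log2 fold change was 0.03, and it was -0.01 under median-of-ratios scaling and 0.09 under quantile normalization. Of the 40 genes, 24 were above 0 and 16 below, in a range of -0.26 to 0.77. The OHT and EtOH libraries overlapped for 28 genes, were higher in OHT without overlap for 7 (23.1% of all genes tested) and lower without overlap for 5 (19.4%). Either way that is 12 of the 40, beside 42.4% of all genes tested. Only Ndufb11b had an unadjusted p under 0.05 (limma), in the higher direction, which 6.02% of all genes tested reached.

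The 7 nuclear core subunits form the electron path of the peripheral arm. Ndufv1, which binds NADH and the flavin, had 120.0 and 112 TPM in OHT, against 119.8 and 116 TPM in EtOH (adjusted p = 0.957, limma). Ndufv2, its iron-sulphur partner, had 271 and 217 TPM in OHT, against 247 and 229 TPM in EtOH (adjusted p = 0.961, limma). For both genes the OHT libraries overlapped with EtOH.

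Ndufs1, the largest core subunit of the arm and the carrier of several iron-sulphur clusters, had 86.8 and 100.3 TPM in OHT, against 102 and 111 TPM in EtOH. Its OHT libraries lay below EtOH (log2 fold change -0.19, SE 0.12, adjusted p = 0.658, limma), and it was, with Ndufb11b, among the 2 nuclear genes that stood lower in OHT replicate 1 than in OHT replicate 2. Ndufs7, which holds the last iron-sulphur cluster before ubiquinone, had 142 and 124 TPM in OHT, against 132 and 128 TPM in EtOH (adjusted p = 0.952, limma), and its libraries overlapped between the groups.

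Ndufs3, a scaffold subunit that joins the complex early in assembly, had 105 and 98.9 TPM in OHT, against 109 and 110.0 TPM in EtOH (adjusted p = 0.788, limma). Ndufs8, which holds iron-sulphur clusters close to the ubiquinone site, had 84.3 and 78.7 TPM in OHT, against 89.2 and 86.0 TPM in EtOH (adjusted p = 0.793, limma). Both were lower in OHT without overlap, by a log2 fold change of -0.10 each. Over the 7 core genes the median log2 fold change was -0.03, with 2 above 0 and 5 below.

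The accessory subunits surround the core and are needed for stability rather than catalysis. The 15 Ndufa genes, counted here with Ndufa4 and Ndufa4l2, had a median log2 fold change of 0.06, with 10 above 0. The 12 Ndufb genes, whose products lie mostly in the membrane arm, had a median of 0.11, with 8 above 0. The 2 Ndufc genes had a median of -0.01, and the 4 Ndufs and Ndufv genes outside the core had a median of 0.10.

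Ndufb11b, a mouse gene whose product resembles that of Ndufb11, had 68.2 and 68.6 TPM in OHT, against 53.4 and 56.8 TPM in EtOH. The OHT libraries were nearly equal and lay above both EtOH libraries (log2 fold change 0.31, SE 0.11, adjusted p = 0.425, limma). Its adjusted p was 0.0338 without OHT replicate 1 and 0.0361 without OHT replicate 2 (limma), in fits that 2957 and 2478 genes passed, and it did not pass without EtOH replicate 1 (adjusted p = 0.9999, limma) or without EtOH replicate 2 (adjusted p = 1.0, limma). Ndufb11 itself, a membrane-arm subunit, had 198 and 171 TPM in OHT, against 159.7 and 159.1 TPM in EtOH (log2 fold change 0.21, SE 0.11, adjusted p = 0.566, limma). Its OHT libraries also lay above EtOH.

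Ndufa1, a small membrane subunit needed early for assembly, had 520.3 and 453 TPM in OHT, against 412 and 423 TPM in EtOH (log2 fold change 0.22, SE 0.10, adjusted p = 0.521, limma). Ndufa11, a membrane subunit that lies at the contact with complex III in supercomplexes, had 338 and 285 TPM in OHT, against 266 and 277 TPM in EtOH (log2 fold change 0.19, SE 0.11, adjusted p = 0.614, limma). Both were higher in OHT without overlap. Ndufb6 had 226 and 178 TPM in OHT, against 178 and 171 TPM in EtOH (log2 fold change 0.20, SE 0.13, adjusted p = 0.678, limma), and its second OHT library lay inside the EtOH range. Ndufa3 and Ndufa9, named after their values were seen, complete the 7 that were higher without overlap.

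In the lower direction, Ndufs5, an accessory subunit on the intermembrane-space side, had 97.3 and 77.5 TPM in OHT, against 110.2 and 98.2 TPM in EtOH. Its OHT libraries lay below EtOH, the first of them by less than 1 TPM (log2 fold change -0.26, SE 0.14, adjusted p = 0.602, limma). Ndufab1, the mitochondrial acyl carrier protein, which also serves fatty acid synthesis and iron-sulphur cluster assembly, had 209.6 and 177 TPM in OHT, against 211 and 212 TPM in EtOH (log2 fold change -0.14, adjusted p = 0.743, limma). It was lower without overlap. Ndufb9, a membrane-arm subunit that binds the acyl carrier protein, had 181 and 158 TPM in OHT, against 193 and 177 TPM in EtOH (log2 fold change -0.13, adjusted p = 0.758, limma), and its libraries overlapped.

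Ndufa4 and Ndufa4l2 carry the Nduf name but sit apart from complex I, since the Ndufa4 product is now placed in complex IV and Ndufa4l2 is its paralogue, known as a hypoxia-induced gene. Ndufa4 was the most abundant of the 40 nuclear genes, with 684 and 569 TPM in OHT, against 618 and 600.2 TPM in EtOH (log2 fold change 0.03, adjusted p = 0.948, limma). Ndufa4l2 was the least abundant, with 2.66 and 0.872 TPM in OHT, against 0.634 and 0.445 TPM in EtOH. Both OHT libraries lay above EtOH, with most of the difference in replicate 1 (log2 fold change 0.77, SE 0.32, adjusted p = 0.488, limma). Its log2 fold change was 1.25 for OHT replicate 1 and 0.28 for OHT replicate 2 against the EtOH mean, and at about 1 TPM it depends on the pseudocount: it was 1.37 with a pseudocount of 0.1 and 0.28 with 5.

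**Figure D2:**
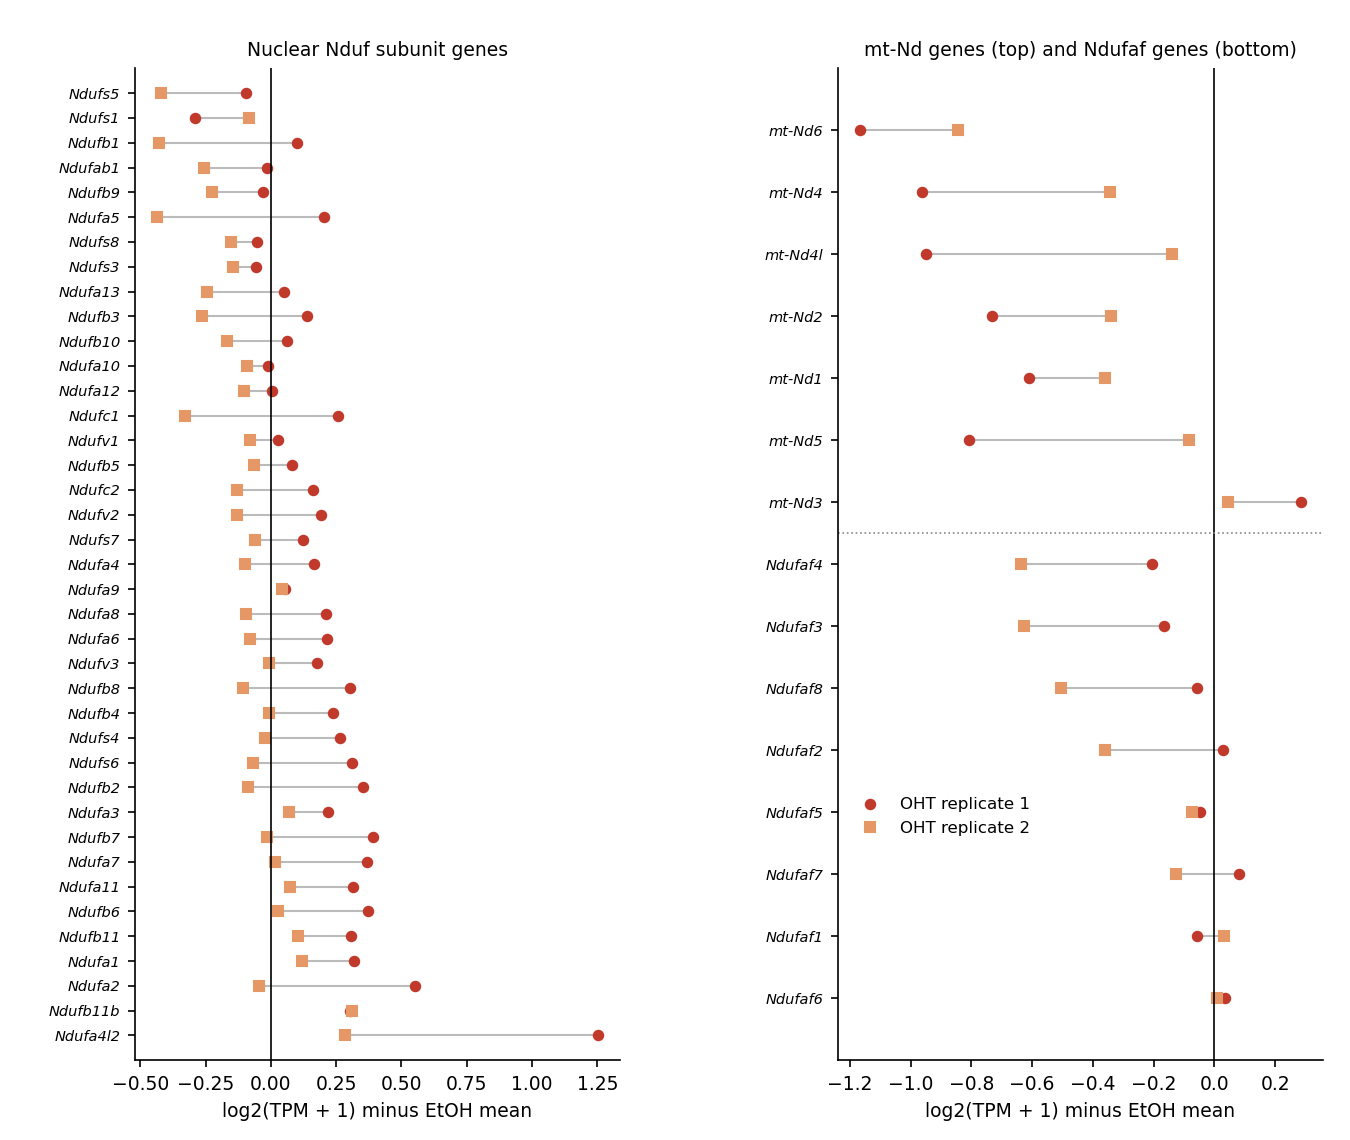
Each OHT library minus the EtOH mean on the log2(TPM + 1) scale, for 39 of the 40 nuclear Nduf genes at left and the mt-Nd and Ndufaf genes at right; circles are OHT replicate 1 and squares OHT replicate 2. For nearly all nuclear genes replicate 1 lies to the right of replicate 2, whereas for 6 of the 7 mt-Nd genes it lies to the left.

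The OHT libraries differed from each other in a pattern that ran through the whole gene set. OHT replicate 1 was above OHT replicate 2 for 38 of the 40 nuclear genes and for 7 of the 8 Ndufaf genes, but for 1 of the 7 mt-Nd genes. Among all genes tested 23.8% had that order. EtOH replicate 1 was above EtOH replicate 2 for 28 of the 40 nuclear genes, beside 37.3% of all genes tested. As a result, OHT replicate 1 alone lay above both EtOH libraries for 31 of the 40 nuclear genes (29.8% of all genes tested), and OHT replicate 2 alone lay below both for 28 of the 40 (26.3% of all genes tested). OHT replicate 2 lay above both EtOH libraries for 7 nuclear genes (61.9% of all genes tested), and OHT replicate 1 below both for 5 (56.3%). The direction of the nuclear genes therefore depended on which OHT library was read: the median log2 fold change was 0.18 for replicate 1 and -0.08 for replicate 2.

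Transcript length moved with this gap between the replicates. Over the 12016 tested genes with a length, OHT replicate 1 minus replicate 2 correlated with log2 transcript length at a Pearson r of -0.53 and a Spearman rho of -0.59, as a description across genes of the same libraries. EtOH replicate 1 minus replicate 2 gave -0.26 and -0.35. The nuclear Nduf transcripts were short, with a median of 849.5 bases, beside 2597 bases for all genes that reached the 1 TPM mean. Within the 40 nuclear genes the relation of the OHT gap to length was weaker, at a Pearson r of -0.28 and a Spearman rho of -0.31. Within the 7 mt-Nd genes it was -0.35 and -0.21. The lengths come from an annotation release that may differ from the authors'. The mt-Nd transcripts had a median of 957 bases, and their median gap between OHT replicates was -0.39, against 0.26 for the nuclear Nduf genes. The part of length, RNA quality or depth in these gaps was not tested.

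**Figure D3:**
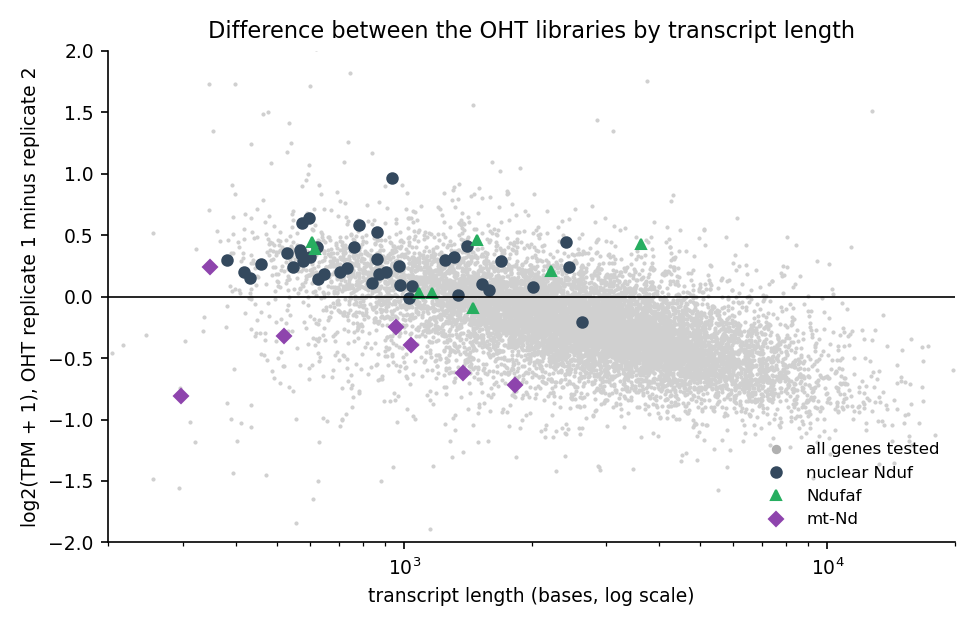
OHT replicate 1 minus OHT replicate 2 on the log2(TPM + 1) scale against transcript length in bases on a log axis, for all genes tested (grey), nuclear Nduf, Ndufaf and mt-Nd genes. Of the nuclear Nduf genes 38 of 40 lie above 0, whereas 6 of the 7 mt-Nd genes lie below 0.

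When the trend with transcript length and GC content was removed from each library, the distance between the genomes kept its direction. The median log2 fold change was then -0.25 for the mt-Nd genes, 0.12 for the nuclear genes and -0.01 for the Ndufaf genes. Of the nuclear genes, 13 had an unadjusted p under 0.05 in the higher direction and 0 in the lower (limma), where 8.04% and 4.83% of all genes tested did, and none passed the adjusted threshold. mt-Nd3 was the single complex I gene that passed after this step, at a log2 fold change of 0.68 and an adjusted p of 0.0352 (limma). Of all genes 0.233% passed. The mt-Nd3 value before the step was 0.17, and its transcript has 348 bases and 33.0% GC. With 204 bases and 31.9% GC, mt-Atp8 moved from -0.60 to 0.08 in the same step. How much of the mt-Nd3 value comes from the trend removal itself was not tested. With the trend removed, the mt-Nd6 value was -0.60 (adjusted p = 0.274, limma).

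**Figure D4:**
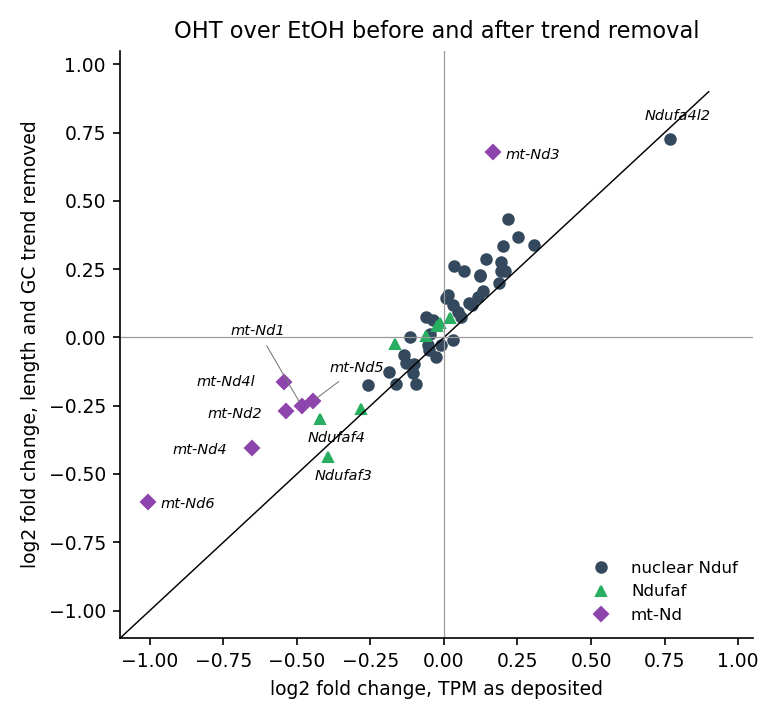
Log2 fold change, OHT over EtOH, after removal of the length and GC trend (vertical axis) against the value from TPM as deposited (horizontal axis), with the line of equality. The mt-Nd genes lie above the line, mt-Nd3 by the widest margin at 0.68 against 0.17, and the 6 others remain below 0 on both axes.

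Assembly factors bind intermediates of the enzyme and leave before it is complete. Of the 8 Ndufaf genes 7 had a log2 fold change below 0, with a median of -0.11, and 3 were lower in OHT without overlap, beside 19.4% of all genes tested. None had an unadjusted p under 0.05 (limma). Ndufaf3 and Ndufaf4, partners in the early assembly of the ubiquinone-binding part, had the lowest values. Ndufaf4 had 31.7 and 23.3 TPM in OHT, against 38.6 and 35.0 TPM in EtOH (log2 fold change -0.42, SE 0.18, adjusted p = 0.493, limma). Ndufaf3 had 12.4 and 8.71 TPM in OHT, against 12.9 and 15.1 TPM in EtOH (log2 fold change -0.40, SE 0.21, adjusted p = 0.591, limma). Both lay below EtOH in both OHT libraries. The Ndufaf4 value rested more on OHT replicate 2: it was -0.64 without OHT replicate 1 and -0.21 without OHT replicate 2. In the same order Ndufaf3 had -0.63 and -0.17, Ndufaf8 -0.50 and -0.06, and Ndufaf2 -0.36 and 0.03. Of the 8 genes 7 stood lower in OHT replicate 2 than in OHT replicate 1, and 1 stood higher.

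Ndufaf5 and Ndufaf8 act together in the hydroxylation of Ndufs7. Ndufaf8 had 26.4 and 19.1 TPM in OHT, against 26.0 and 29.2 TPM in EtOH (adjusted p = 0.678, limma). Ndufaf5 had 22.5 and 22.1 TPM in OHT, against 23.1 and 23.6 TPM in EtOH (adjusted p = 0.916, limma). Ndufaf5 was the third gene without overlap, at a log2 fold change of -0.06, which the detrended fit turned to 0.01.

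Ndufaf2, a late factor related to Ndufa12, was the most abundant of the 8 with 73.9 and 56.2 TPM in OHT, against 72.4 and 72.5 TPM in EtOH (adjusted p = 0.775, limma). Ndufaf7, a methyltransferase that acts in early assembly, was the least abundant with 6.87 and 5.81 TPM in OHT, against 6.35 and 6.53 TPM in EtOH (adjusted p = 0.977, limma). Ndufaf6 had 22.4 and 21.9 TPM in OHT, against 20.4 and 23.3 TPM in EtOH (adjusted p = 0.974, limma). All 3 overlapped between the groups.

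Of 13 further assembly factors of complex I that carry other names, 12 were found, and their median log2 fold change was -0.02, with 4 above 0 and 8 below. None passed the adjusted threshold. Without overlap of the libraries, 4 were higher and 4 lower in OHT, beside 23.1% and 19.4% of all genes tested. Dmac1, a factor of the distal membrane arm, was the only gene of the 12 with an unadjusted p under 0.05 (limma). In the higher direction 6.02% of all genes tested reached that. Dmac1 stood at 0.35 on the log2 scale (SE 0.13, adjusted p = 0.428, limma). The 4 subunits of complex II, which is coded by nuclear genes alone, had a median of -0.08 on the same scale.

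The balance of the genomes was also summed per library. The 7 mt-Nd genes summed to 8153 and 9664 TPM in OHT, against 11145 and 11373 TPM in EtOH. The 40 nuclear genes summed to 8164 and 6788 TPM in OHT, against 7228 and 7005 TPM in EtOH. Without Ndufa4 and Ndufa4l2, the remaining 38 summed to 7478 and 6219 TPM in OHT, against 6609 and 6404 TPM in EtOH. The mt-Nd sum lay below EtOH in both OHT libraries, whereas the nuclear sum lay above EtOH in OHT replicate 1 and below it in OHT replicate 2. The ratio of the mt-Nd to the nuclear sum was 0.999 and 1.42 in OHT, against 1.54 and 1.62 in EtOH, or 1.21 ± 0.301 in OHT and 1.58 ± 0.0578 in EtOH (SD, n = 2 each). The groups did not overlap, but the difference of -0.41 in the mean log2 ratio was close to the SD of 0.36 between the OHT libraries, and the smallest p that a two-sided exact permutation test can give with 2 libraries against 2 is 0.333, so the ratio was not tested. The difference was -0.15 without OHT replicate 1, -0.66 without OHT replicate 2 and -0.16 once the trend in length and GC content was taken out. Without mt-Nd3, which holds much of the OHT sum, the ratio was 0.641 and 1.06 in OHT, against 1.20 and 1.30 in EtOH.

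**Figure D5:**
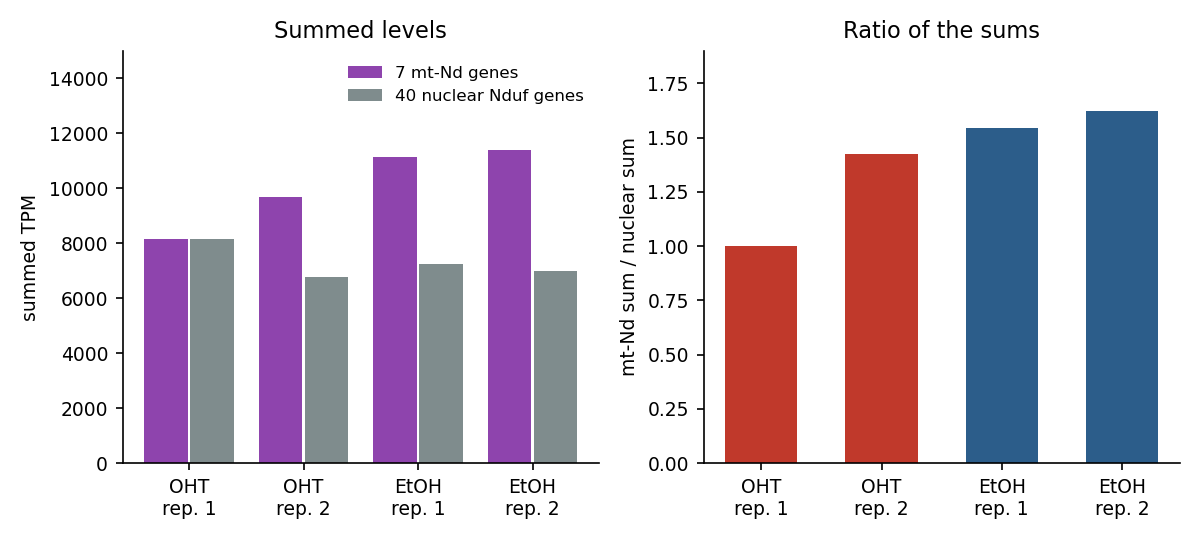
Summed TPM of the mt-Nd and nuclear Nduf genes and their ratio in each library, with OHT left of EtOH. The mt-Nd sums are 8153 and 9664 TPM in OHT and 11145 and 11373 TPM in EtOH, and the ratio is 0.999 and 1.42 in OHT against 1.54 and 1.62 in EtOH.

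The upstream sequences of the nuclear members were read from RefSeq (GRCm38.p6), in windows of 250 bases before to 50 after the start of the gene, for the 41 of 48 nuclear members that matched. Nuclear respiratory factor 1 (NRF1) is known to regulate many nuclear genes of the respiratory chain. Its motif, searched on both strands as GCGCA, any base and GCGC, was in the windows of 9 of the 41 members (22.0%) and of 5.19% of all genes with a window. The YY1 motif AAGATGGC was found in 8 members (19.5%) against 3.19% of all genes, the ETS motif CCGGAAG in 6 members (14.6%) against 9.93%, and the ERR motif TCAAGGTCA in 0 members against 0.466%. At least 1 of the 4 motifs was in 21 members (51.2%) against 16.8% of all genes. The 27025 genes with a window were not limited to the genes tested here, nor matched to the members in base composition. The part of these differences between the genes in the shares was not tested. A match is a description of these letters, not a binding site.

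The members with the NRF1 motif did not move in a shared direction: their log2 fold changes ran from -0.42 to 0.19, with 5 above 0 and 4 below. The windows that span this range are shown, 5′ to 3′ on the strand of the gene with the motif in capitals: Ndufaf4 (chr4:24897833-24898132, plus strand) and Ndufs5 (chr4:123718137-123718436, minus strand), both lower in OHT, and Ndufa11 (chr17:56717512-56717811, plus strand), higher in OHT, none past the threshold.
Ndufaf4: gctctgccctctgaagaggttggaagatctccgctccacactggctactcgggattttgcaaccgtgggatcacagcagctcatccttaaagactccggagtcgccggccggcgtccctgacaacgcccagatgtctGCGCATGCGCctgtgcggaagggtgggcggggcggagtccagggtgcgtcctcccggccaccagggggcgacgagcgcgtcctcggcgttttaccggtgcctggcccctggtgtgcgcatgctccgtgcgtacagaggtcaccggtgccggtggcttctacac
Ndufs5: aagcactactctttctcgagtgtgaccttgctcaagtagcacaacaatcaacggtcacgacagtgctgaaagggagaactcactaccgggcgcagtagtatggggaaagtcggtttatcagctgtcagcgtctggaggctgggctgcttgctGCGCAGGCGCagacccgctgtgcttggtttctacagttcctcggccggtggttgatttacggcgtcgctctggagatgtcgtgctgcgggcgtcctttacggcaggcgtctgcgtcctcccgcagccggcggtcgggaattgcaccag
Ndufa11: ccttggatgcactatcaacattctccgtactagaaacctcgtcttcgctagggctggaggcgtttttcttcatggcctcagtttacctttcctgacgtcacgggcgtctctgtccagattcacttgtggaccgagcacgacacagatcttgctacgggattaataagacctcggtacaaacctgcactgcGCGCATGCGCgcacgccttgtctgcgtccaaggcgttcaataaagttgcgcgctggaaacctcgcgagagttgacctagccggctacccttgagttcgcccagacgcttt
The 3 genes carry the same kind of motif. They were chosen to span the range, so their lying on different sides of 0 follows from that choice.

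Near-identical copies limit the values of 9 members. Transcripts with at least 95% identity over at least 50% of the length were found for mt-Nd3, mt-Nd4, mt-Nd4l, mt-Nd5, Ndufs3, Ndufa12, Ndufs6, Ndufs5 and Ndufb11. For mt-Nd3 the copy, Gm28438, was 99.71% identical over 99.1% of the transcript, and for mt-Nd4l the copy, Gm10222, was 100% identical over 99.0%. The copies have no row in the table used here, and whether the authors' transcript set held them is not given. Reads may have been lost to the copies, or reads from the copies may have been counted with the members. The levels of these members are uncertain to that extent.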

How the data were processed

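Poly(A) RNA was sequenced from 2 OHT and 2 EtOH samples of mouse embryonic stem cells, all labelled as 1 batch. The deposited values are TPM, per the file headers. The authors used Trim Galore and Salmon with GRCm38 (mm10), per the submitters' processing notes; neither versions nor the annotation release is given in the sources used here. TPM keeps no depth, so no counting interval was computed. The table also holds 2 value columns that match no sample, and these were not used.

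Of 22266 genes, 12029 had a mean of at least 1 TPM and were tested on log2(TPM + 1) with limma 3.58.1 in R 4.3.3, with a mean-variance trend and Benjamini-Hochberg adjustment over all of them (residual df 2, prior df 4.01). The script was tested on simulated data. Transcript lengths and the mitochondrial sequences came from GENCODE release 21; 22213 gene IDs matched with the version ignored and 11 with it, so the authors' transcripts may differ from those used for length and GC content. Near-identical copies were searched with blastn 2.17.0. Trend removal used splines with 4 degrees of freedom in length and GC content.

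The members and lists were chosen with earlier results of these data known. The values of 1 member are not reported here. Members named are all mt-Nd genes, the nuclear core genes, Ndufa4, Ndufa4l2, up to 6 each way with the smallest p among the other Nduf and the Ndufaf genes, and the most and least abundant of each. Alternatives were other pseudocounts, filters, scalings, moderation, trend removal, a replicate block and each library left out. Primitive endoderm markers summed to 4.69 and 5.39 TPM in OHT against 4.83 and 4.33 TPM in EtOH, and trophoblast markers to 7.98 and 8.79 TPM in OHT against 8.92 and 9.44 TPM in EtOH.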

Additional observations from a re-analysis of the deposited data

How the results depend on the processing

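The count of genes past the adjusted threshold, 5 as reported, was 0 with no filter on low values (limma; 2228 genes had an unadjusted p under 0.05), 3 with median-of-ratios scaling, 3 with quantile normalization, 3 with limma without a trend and 28 once the trend with length and GC was taken out. Leaving out each library in turn gave 34 to 2957 genes. With the replicate number as a block 474 genes passed (3.94% of those tested), 7 of them complex I genes: 6 mt-Nd genes lower and Ndufa4l2 higher in OHT. That fit gave little weight to each gene's own spread. At log2 fold changes of -0.55 and -0.48, mt-Nd4l and mt-Nd1 had adjusted p of 0.00024 and 0.0024 (limma, replicate block). Their SEs in the fit as reported were 0.25 and 0.11. The passes therefore do not fully allow for the gap between the OHT libraries. Across the genes tested, replicate 1 minus replicate 2 in OHT and the same difference in EtOH correlated at r = 0.29. Both differences also fell with transcript length (Pearson r -0.53 and -0.26). There are only 2 pairs, and the labels do not say that a number marks a shared culture, so same-numbered libraries share only a number. The OHT libraries decided much of the values over lists: the mt-Nd median was -0.34 without OHT replicate 1, -0.81 without OHT replicate 2 and -0.25 with the trend removed, against -0.54 as reported. The log2 ratio of the sums was -0.15, -0.66 and -0.16 in the same order, against -0.41. The nuclear median was -0.08, 0.18 and 0.12, against 0.03, and the Ndufaf median -0.24, -0.05 and -0.01, against -0.11. No named gene passed the threshold as reported, so none could be lost. Alternatives gave 449 values for 30 named genes. Outside the left-out libraries, those that passed were the 7 with the replicate block and mt-Nd3 with the trend removed. Of all genes 3.94% and 0.233% passed in these 2 fits. The other passes came from fits with a library left out, where a group is down to a single library. Of the 449 values, 17 turned round. Outside the left-out libraries these were Ndufa4 (-0.0039), Ndufaf6 (-0.0137), Ndufs7 (-0.0066) and Ndufv2 (-0.0074) with median-of-ratios scaling, Ndufaf6 (-0.0119) and Ndufv1 (0.0101) with quantile normalization, and Ndufaf5 (0.0068), Ndufaf7 (0.0437) and Ndufs7 (-0.0086) with the trend removed; the cause was not tested. Over the left-out libraries Ndufa4 ran from -0.10 to 0.17, Ndufaf2 from -0.36 to 0.029, Ndufaf6 from -0.0705 to 0.11, Ndufaf7 from -0.13 to 0.0812, Ndufs7 from -0.062 to 0.12, Ndufv1 from -0.0785 to 0.0267 and Ndufv2 from -0.13 to 0.19. A sum over a gene and its near-identical copies could not be computed, since the copies have no row in the table. With a filter at a mean of 5 TPM, Ndufa4l2 gave no value. The unknown depth limits the precision known for low genes such as Ndufa4l2 to the spread of 2 libraries per group.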
